A study of Homo sapiens with 12 samples.

Results

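Hypoxia was compared with normoxia in L3.6pl, a human pancreatic cancer cell line known as a variant that was selected in mice for metastatic growth. The comparison rests on 6 of the 12 Affymetrix arrays in the series, chosen by their labels: 3 from cells that spent their last 24 h at 1% oxygen and 3 from cells left untreated. The other 6 arrays hold FG, a second human pancreatic cancer line, in the same pair of conditions. All cells were grown from frozen stock in serum-containing medium, and nitrogen made up the balance of the hypoxic gas. Both are established lines, so results describe these cultures and no tumour, and the labels do not say whether replicates 1 to 3 of a group came from separate cultures, so the p-values below measure only the spread between arrays. The text describes 19775 genes, each by 1 probe set that the array's annotation ties to that gene alone and, where a gene had several, by the brightest of them on average over all arrays.

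Oxygen is sensed in animal cells by prolyl hydroxylases, which mark the alpha subunits of the hypoxia-inducible factors (HIF-1α and HIF-2α) for destruction while oxygen is plentiful. When oxygen falls, the subunits persist, pair with ARNT and bind DNA at hypoxia response elements, short sites built around a core of ACGTG or GCGTG. The genes they raise move cells toward glycolysis, remove mitochondria, remodel matrix, signal to blood vessels and include prolyl hydroxylases that act back on HIF, and pancreatic carcinoma is known as a poorly perfused tumour in which this pathway is active.

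Values are log2 of the deposited normalised intensity, given for replicates 1, 2 and 3 in that order, and a log2 difference of 1 is a 2-fold difference. Each change is the hypoxia mean minus the normoxia mean ± its standard error from a limma model of all 12 arrays, in which the 4 groups share 1 estimate of spread, with 3 arrays per group. A gene is said to have risen or fallen when its Benjamini-Hochberg adjusted p over the 19775 genes was below 0.05, and to have kept its call when this held with any single array of the 12 left out. Each probe set was compared with itself only, and no level is set against that of another gene. Probe sets below a level of 6 are called dim: their signal over background is small, and the size of a change from or into that range is uncertain and is given on the log2 scale only.

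The third hypoxia array stood apart from the other 5 of L3.6pl. On the second principal component of the 6 arrays, which carried 24.1% of their variance, it scored -44.67, while the others lay between -5.74 and 17.23. On the first component, with 56.1%, the hypoxia arrays scored 34.21, 46.91 and 8.04 and the normoxia arrays -18.34, -33.79 and -37.03. Its mean correlation with its own group across genes was 0.9808, against 0.9874 to 0.9933 for the others. The signal at the 3′ end of ACTB exceeded that at the 5′ end by 1.343 on the log2 scale in this array and by 0.476 to 0.874 in the other 5. For GAPDH the same difference was small, at -0.032 in this array and -0.163 to -0.093 in the other 5. The part of RNA quality in the results was not tested, and results that turn on this array are given with and without it.

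Of 19775 genes, 769 rose in hypoxia (3.89%) and 588 fell (2.97%). At least 2-fold changes made up 341 of the rises (1.72%) and 196 of the falls (0.991%). The median rise among called genes was 0.93 and the median fall -0.85, with a median standard error of 0.14. In each of the 1357 called genes (6.86%) the 3 hypoxia values lay wholly above or wholly below the 3 normoxia values. Such separation was also found, called or not, above normoxia in 2280 genes (11.5%) and below it in 2537 (12.8%). Over all genes tested the median change was -0.02.

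Without hypoxia replicate 3, 954 genes rose (4.82%) and 1482 fell (7.49%). Of the original calls 688 rises and 533 falls were called again, none with the opposite sign, and 949 further falls and 266 further rises were added. At least 2-fold changes then made up 437 of the rises (2.21%) and 523 of the falls (2.64%). The array's own change was smaller than the mean change of the other hypoxia arrays in 457 of the 588 genes that fell and in 440 of the 769 that rose. The median change of the genes that fell was -0.59 in replicate 3 and -0.93 in the mean of replicates 1 and 2, and among the genes that rose it was 0.87 and 0.96. All 3 hypoxia arrays shared the direction of the calls. The selection of called genes favours this, because replicate 3 entered the fit that called them. The count of falls moved by more than 1.5 times with replicate 3.

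**Figure D1:**
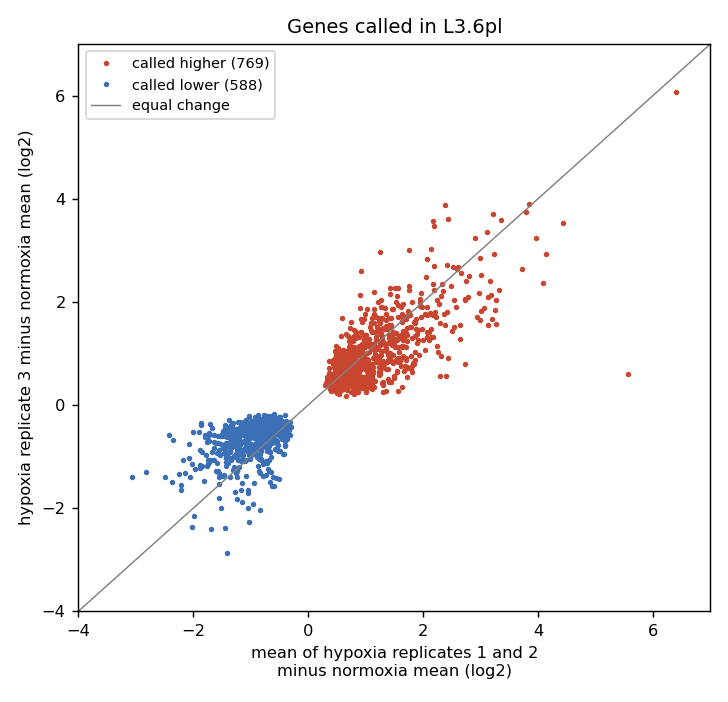
Change of each called gene in hypoxia replicate 3 against its mean change in replicates 1 and 2, both as log2 intensity minus the mean of the 3 normoxia arrays, with 769 genes that rose and 588 that fell; the line marks equal change. Among the genes that fell, 457 of 588 lie nearer to 0 in replicate 3.

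Other single arrays moved the counts as well. Without hypoxia replicate 2, 387 genes rose and 182 fell, and without hypoxia replicate 1, 587 rose and 266 fell. Without normoxia replicates 1, 2 and 3 in turn, 583, 343 and 462 genes rose and 345, 165 and 272 fell. The FG arrays act only through the shared spread: without FG normoxia replicate 1, 962 genes rose (4.86%) and 886 fell (4.48%). Without the other FG arrays the counts ran from 648 to 772 and from 442 to 542. FG normoxia replicate 1 had the lowest mean correlation with its own group of the 12 arrays, 0.9776, against 0.9843 to 0.9927 in the other FG arrays. The same ACTB end difference as above was 1.143 in it and 0.34 to 0.674 in the other FG arrays. That of GAPDH was 0.013 in it and -0.185 to -0.134 in the other FG arrays. Calls that held with each of the 12 arrays left out in turn numbered 325 rises and 137 falls.

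**Figure D2:**
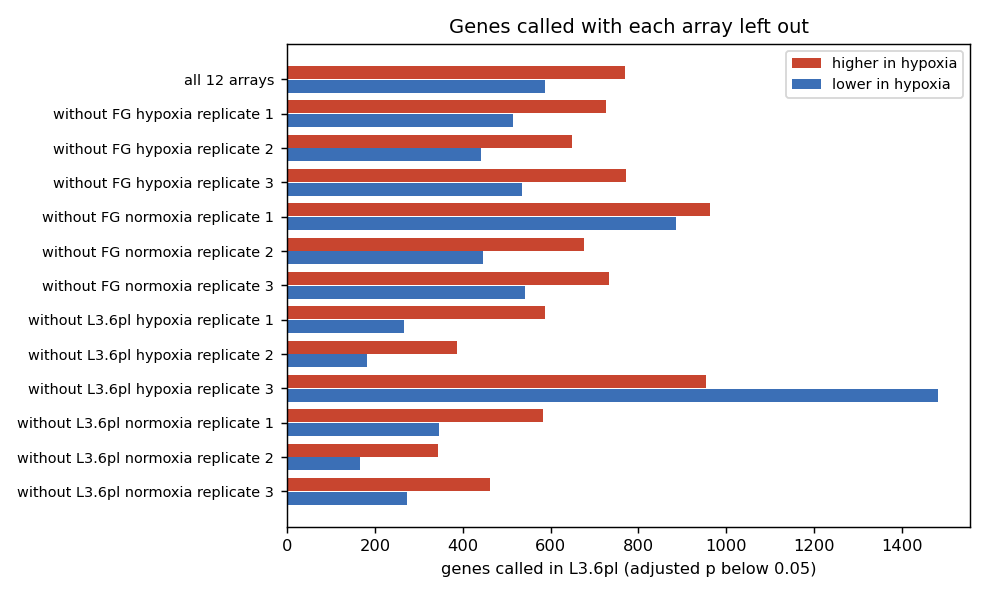
Number of genes that rose and that fell in L3.6pl hypoxia (adjusted p below 0.05) with all 12 arrays and with each array left out in turn. The bars for genes that fell run from 165 without normoxia replicate 2 to 1482 without hypoxia replicate 3.

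A list of textbook targets of the hypoxia-inducible factors had 37 measured members, of which 29 were higher by the test and none lower. In 34 of them the hypoxia values lay wholly above the normoxia values. Over all genes 3.89% rose, 2.97% fell and 11.5% lay wholly above normoxia, and each list count below stands beside these shares. Several lists below share members with this one, among them those of glycolysis, mitophagy and collagen hydroxylation. Their counts are therefore not independent of it. The median change of the list was 2.06, against -0.02 for all genes, and it was 2.21, 2.40 and 1.55 in hypoxia replicates 1, 2 and 3. With any single array left out, 26 to 32 members rose, the most without hypoxia replicate 3.

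Shown here are 5 of these genes with the 250 bases before their start site. Their promoters hold the core ACGTG, and the genes kept their calls. Their changes ran from 2.55 to 2.96, all above the list's median of 2.06. They are a selection with large rises and do not stand for the list. From 250 bases before to 50 after the start site, 12 of 24 called members with a matched promoter held ACGTG. The sequences are from RefSeq on GRCh38.p14, each written 5′ to 3′ on the gene's own strand, with ACGTG or its reverse complement CACGT in capitals; CACGTG is the same core read on both strands and counts as 2 matches.
LOX: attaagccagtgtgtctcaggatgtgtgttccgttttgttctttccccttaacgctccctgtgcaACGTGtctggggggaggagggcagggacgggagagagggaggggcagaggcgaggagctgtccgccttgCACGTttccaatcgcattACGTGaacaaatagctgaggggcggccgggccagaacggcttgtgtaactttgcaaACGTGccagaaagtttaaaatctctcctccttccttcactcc
ANKRD37: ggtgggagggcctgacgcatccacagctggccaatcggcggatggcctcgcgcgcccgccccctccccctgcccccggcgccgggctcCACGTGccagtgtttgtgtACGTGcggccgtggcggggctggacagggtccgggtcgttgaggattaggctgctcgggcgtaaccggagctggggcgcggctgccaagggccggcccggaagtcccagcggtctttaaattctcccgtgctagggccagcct
BNIP3: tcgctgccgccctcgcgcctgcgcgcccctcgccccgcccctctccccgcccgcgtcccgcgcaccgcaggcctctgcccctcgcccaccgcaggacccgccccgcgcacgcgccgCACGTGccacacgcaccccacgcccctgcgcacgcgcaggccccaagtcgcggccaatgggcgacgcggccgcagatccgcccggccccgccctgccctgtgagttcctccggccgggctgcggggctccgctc
POFUT4: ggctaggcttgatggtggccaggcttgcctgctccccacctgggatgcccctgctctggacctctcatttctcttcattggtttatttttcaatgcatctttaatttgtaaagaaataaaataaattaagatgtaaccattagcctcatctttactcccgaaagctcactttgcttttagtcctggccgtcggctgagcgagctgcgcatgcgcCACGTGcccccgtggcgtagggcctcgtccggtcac
ERO1A: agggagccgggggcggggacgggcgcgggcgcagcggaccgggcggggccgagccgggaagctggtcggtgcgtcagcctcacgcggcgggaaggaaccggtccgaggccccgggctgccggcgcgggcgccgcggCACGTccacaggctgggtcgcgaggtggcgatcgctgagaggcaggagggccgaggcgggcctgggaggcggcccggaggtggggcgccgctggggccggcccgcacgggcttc
The LOX window (chr5:122078260-122078509, minus strand) held 4 matches, that of ANKRD37 (chr4:185396591-185396840, plus strand) held 3, those of BNIP3 (chr10:131981924-131982173, minus strand) and POFUT4, a fucosyltransferase gene formerly named FUT11 (chr10:73772026-73772275, plus strand) held 2 each, and that of ERO1A, an oxidase that drives disulfide formation (chr14:52695559-52695808, minus strand) held 1. Counted on either strand from 250 bases before to 50 after the start site, 24.1% of 15384 promoters held ACGTG, as did 32.3% of the 269 matched genes that rose at least 2-fold and 23.2% of the 164 that fell at least 2-fold. In the list of targets 16 of 31 matched promoters held it (51.6%). The alternative core GCGTG stood in 44.3% of all these promoters, in 44.2% of those that rose, in 51.2% of those that fell and in 54.8% of the target list. Median GC content was 63.0% over all promoters, 66.7% among those that rose, 65.3% among those that fell and 68.0% in the list. A match is a run of letters in a window and not evidence of binding.

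ADM, which encodes the vasodilator peptide adrenomedullin, read 11.83, 11.82 and 11.09 in hypoxia and 7.92, 7.70 and 7.94 in normoxia. The lowest hypoxia array stood far above the highest normoxia array, and ADM rose by 3.72 ± 0.36 (13.2-fold, adjusted p = 0.000453). NDRG1, a stress-response gene of differentiation, read 13.51, 13.91 and 13.68 against 11.07, 9.42 and 9.29. The groups did not overlap, although normoxia replicate 1 was well above the other normoxia arrays, and NDRG1 rose by 3.77 ± 0.39 (adjusted p = 0.000574). COXFA4L2, a mitochondrial protein formerly named NDUFA4L2, had the same outlying normoxia array: 9.62, 10.43 and 10.08 against 7.31, 5.81 and 5.45, a rise of 3.86 ± 0.43 (adjusted p = 0.000855).

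LOX, the lysyl oxidase that crosslinks collagen, read 9.99, 10.66 and 9.23 in hypoxia and 7.54, 6.88 and 6.58 in normoxia. It rose by 2.96 ± 0.40 (adjusted p = 0.00193), with replicate 3 the lowest of the hypoxia arrays. ANKRD37, an ankyrin-repeat protein, showed the same order within hypoxia, with 11.74, 11.59 and 10.44 against 8.32, 8.30 and 8.59, and rose by 2.85 ± 0.39 (adjusted p = 0.0021). BNIP3, a mitochondrial receptor for mitophagy, had no such gap, with 11.50, 11.88 and 11.75 against 9.36, 8.99 and 8.89 and a rise of 2.63 ± 0.31 (adjusted p = 0.0012). ADM, NDRG1, COXFA4L2, LOX, ANKRD37 and BNIP3 all kept their calls. PPFIA4, a liprin, read 7.18, 7.71 and 5.53 against 5.10, 4.62 and 4.45, and its rise of 2.08 ± 0.54 (adjusted p = 0.0445) from the dim range was 2.72 without replicate 3. PPFIA4 lost its call in 7 of the 12 cases (adjusted p 0.0573 to 0.169).

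VEGFA, the main growth factor for blood vessels and a textbook target, was among the 8 listed genes that did not pass. It read 12.32, 12.69 and 11.64 in hypoxia and 12.40, 11.45 and 11.11 in normoxia. The groups overlapped, because normoxia replicate 1 stood above hypoxia replicates 1 and 3, and the change was 0.57 ± 0.47 (adjusted p = 0.576). The other 7 were BHLHE40, CA12, DDIT4, EFNA3, EGLN1, STC2 and WSB1, with changes from 0.61 in EFNA3 to 1.48 in WSB1. CA9 was not analysed here.

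**Figure D3:**
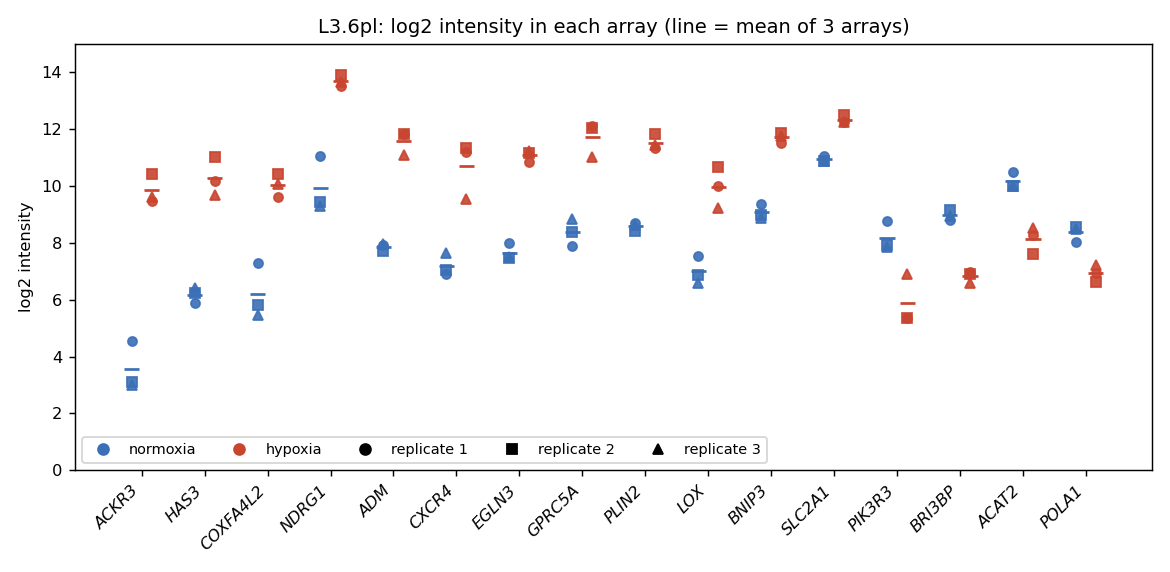
log2 intensity of 16 named genes in the 3 normoxia arrays and the 3 hypoxia arrays of L3.6pl, with marker shape for the replicate and a line for each group's mean. In the first 12 genes all hypoxia values lie above all normoxia values, and in PIK3R3, BRI3BP, ACAT2 and POLA1 all lie below.

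Of 11 measured genes of the HIF subunits and oxygen sensing 3 rose and none fell, with a median change of 0.53. EGLN3, the prolyl hydroxylase that is itself a strong HIF target, read 10.84, 11.16 and 11.24 against 7.98, 7.46 and 7.50. The groups were far apart and EGLN3 rose by 3.43 ± 0.28 (adjusted p = 0.000171). CITED2, which competes with HIF for the coactivator p300, rose by 1.53 ± 0.27 (adjusted p = 0.00806), and both kept their calls. ARNT2, a relative of ARNT, rose by 0.71 ± 0.18 (adjusted p = 0.0436; 0.0528 without hypoxia replicate 3). ARNT2 lost its call in 8 of the 12 cases (adjusted p 0.0528 to 0.171).

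The transcripts of HIF1A, EPAS1 and ARNT did not pass with all arrays. HIF1A was lower in all hypoxia arrays, with 12.20, 12.29 and 12.21 against 12.78, 12.72 and 12.61 (-0.47 ± 0.14, adjusted p = 0.0775), and passed only without FG normoxia replicate 1 (adjusted p = 0.0373). EPAS1, which encodes HIF-2α, changed by 0.53 ± 0.38 (adjusted p = 0.501). ARNT turned on hypoxia replicate 3: its values were 8.23, 8.17 and 7.33 against 7.06, 7.17 and 7.28, its change was 0.74 ± 0.21 with all arrays (adjusted p = 0.0658) and 1.03 without that array (adjusted p = 0.00136). EGLN1, the main HIF prolyl hydroxylase, likewise passed only without replicate 3 (0.69, adjusted p = 0.0816; 0.87, adjusted p = 0.0253).

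Of 21 measured glucose transporters and glycolytic enzymes 12 rose and none fell, with a median change of 0.76. With single arrays left out, 11 to 14 rose. SLC2A1, the glucose transporter GLUT1, read 12.24, 12.51 and 12.24 in hypoxia and 11.05, 10.89 and 10.87 in normoxia. Neither group spread by more than a small part of the gap, and the rise was 1.39 ± 0.12 (adjusted p = 0.000223). PFKFB4, which makes the activator of phosphofructokinase, rose by 2.37 ± 0.25 (adjusted p = 0.000621). GPI, the glucose phosphate isomerase, rose by 1.22 ± 0.10 (adjusted p = 0.000197), and PFKL, the liver-type phosphofructokinase, by 0.86 ± 0.09 (adjusted p = 0.000816). ENO2, the neuronal enolase, read 10.83, 11.06 and 9.42 against 8.11, 7.41 and 7.69, and SLC2A3, the transporter GLUT3, read 10.79, 10.84 and 9.24 against 8.29, 7.36 and 7.42. Both rose, ENO2 by 2.70 ± 0.36 (adjusted p = 0.00186) and SLC2A3 by 2.60 ± 0.46 (adjusted p = 0.0079), and in both replicate 3 was the lowest hypoxia array. HK2, the inducible hexokinase that phosphorylates glucose, rose by 1.86 ± 0.28 (adjusted p = 0.00371) with 1 of 3 probe sets higher. Smaller rises were those of PFKP (1.25), HK1 (0.58) and ALDOA (0.48), all of which kept their calls.

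Some glycolytic enzymes passed or missed with the arrays that set the shared spread. LDHA, lactate dehydrogenase A, read 13.66, 13.70 and 13.65 against 13.03, 13.06 and 13.04. Both groups were tight and far apart, yet with all 12 arrays the change was 0.63 ± 0.20 (adjusted p = 0.0903). In a fit of the 6 L3.6pl arrays alone, which called 518 genes higher (2.62%) and 279 lower (1.41%), its adjusted p was 0.0179, and without FG normoxia replicate 1 it was 0.00119. PGK1, phosphoglycerate kinase, behaved likewise, with 13.61, 13.65 and 13.64 against 12.90, 12.85 and 12.89, an adjusted p of 0.0536 with all arrays, 0.0113 in L3.6pl alone and 0.00145 without FG normoxia replicate 1. GAPDH, with 14.29, 14.29 and 14.25 against 14.08, 14.13 and 14.18, changed by 0.14 ± 0.08 (adjusted p = 0.332).

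Of 16 genes that divert pyruvate or handle glycogen 7 rose and none fell, with a median of 0.27; without normoxia replicate 2 the count was 5. PDK1, a kinase that inhibits pyruvate dehydrogenase, read 10.72, 11.08 and 10.07 against 8.96, 8.54 and 8.05 and rose by 2.11 ± 0.37 (adjusted p = 0.00806). PPP1R3C, a glycogen-targeting subunit of protein phosphatase 1, read 7.13, 7.35 and 7.75 against 5.15, 5.23 and 4.77 and rose by 2.36 ± 0.32 (adjusted p = 0.00202). All hypoxia values of both lay above normoxia. GYS1, the muscle-type glycogen synthase, rose by 1.21 ± 0.21 (adjusted p = 0.00786) and PGM1, phosphoglucomutase, by 0.85 ± 0.13 (adjusted p = 0.00323). LDHB and UGP2 did not pass (-0.31 and 0.33).

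Of 9 mitophagy and mitochondrial hypoxia genes 4 rose, among them BNIP3 and its relative BNIP3L (1.56 ± 0.19, adjusted p = 0.00122). In the respiratory chain and ATP synthase 3 of 25 genes fell, none rose, and the median was -0.29. ATP5F1A, the alpha subunit of ATP synthase, read 12.50, 12.44 and 12.68 against 12.92, 13.09 and 13.15 and fell by 0.51 ± 0.10 (adjusted p = 0.0153), though 1 of its 2 probe sets moved the other way. ATP5F1B fell by 0.51 ± 0.12 (adjusted p = 0.0271) and CYC1, of complex III, by 0.85 ± 0.22 (adjusted p = 0.0483). None of the 3 was called without hypoxia replicate 2, normoxia replicate 2 or normoxia replicate 3, and 1 was called without hypoxia replicate 1. In the citric acid cycle and its feeders 2 of 14 fell and 1 rose: CS, citrate synthase, fell by 0.67 ± 0.16 (adjusted p = 0.0283), OGDH by 0.60 ± 0.12 (adjusted p = 0.0141), and PC, pyruvate carboxylase, rose by 0.64 ± 0.13 (adjusted p = 0.0163). ATP5F1A, ATP5F1B and PC lost their calls without hypoxia replicates 1 or 2 or normoxia replicates 2 or 3 (adjusted p 0.0514 to 0.119). CYC1 lost its call in 9 of the 12 cases (adjusted p 0.0538 to 0.184). CS lost its call without hypoxia replicates 1 or 2 or normoxia replicates 1, 2 or 3 (adjusted p 0.0542 to 0.119). OGDH lost its call without normoxia replicate 2 (adjusted p 0.0544).

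The receptors of CXCL12, the chemokine that draws cells of many carcinomas toward its source, were among the genes with the largest rises. ACKR3, which binds and removes CXCL12, read 9.49, 10.43 and 9.62 in hypoxia and 4.55, 3.12 and 3.00 in normoxia. It rose by 6.29 ± 0.41 (adjusted p = 6.99e-05), with 2 of its 3 probe sets higher, and its normoxia values lay in the dim range, so that the size of the rise is uncertain. CXCR4, the signalling receptor, read 11.20, 11.36 and 9.56 against 6.91, 7.04 and 7.64. The groups did not overlap, but replicate 3 lay well below the other hypoxia arrays: the rise was 3.51 ± 0.39 (adjusted p = 0.000885) with it and 4.08 without it (adjusted p = 4.63e-05).

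Of the 13 measured genes of this axis and the neutrophil chemokines, 4 rose and none fell. CXCL8, interleukin 8, read 11.79, 11.93 and 10.45 against 8.08, 8.48 and 9.27. Replicate 3 was again nearest to normoxia, and CXCL8 rose by 2.78 ± 0.49 (adjusted p = 0.00791). CXCL3, a related chemokine, rose by 1.25 ± 0.29 (adjusted p = 0.0282). CCL20, with 11.16, 12.02 and 12.17 against 10.05, 9.32 and 10.49, did not pass (1.83 ± 0.50, adjusted p = 0.0538), nor did CXCL5 (0.13 ± 0.17). CXCL3 lost its call without hypoxia replicates 1 or 2 or normoxia replicates 2 or 3 (adjusted p 0.0652 to 0.119).

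Among 17 angiogenic factors 6 rose and 1 fell. ANGPTL4, a secreted inhibitor of lipoprotein lipase, had tight groups with 7.73, 7.62 and 7.64 against 5.78, 6.01 and 5.92 and rose by 1.76 ± 0.12 (adjusted p = 8.56e-05). ANG, angiogenin, rose by 1.96 ± 0.24 (adjusted p = 0.0014) and EFNA1, a ligand of Eph receptors, by 1.63 ± 0.13 (adjusted p = 0.000171). THBS1, thrombospondin 1, an inhibitor of vessel growth, read 7.82, 7.97 and 6.94 against 5.61, 5.84 and 6.15 and rose by 1.71 ± 0.39 (adjusted p = 0.025). VEGFC rose by 0.97 ± 0.24 (adjusted p = 0.0394), and the gene that fell was FGF2, the basic fibroblast growth factor (-0.52 ± 0.13, adjusted p = 0.0411). PGF, placental growth factor, changed by 0.21 ± 0.42 and did not pass. THBS1 lost its call without hypoxia replicates 1 or 2 or normoxia replicates 1, 2 or 3 (adjusted p 0.0538 to 0.108). VEGFC lost its call without hypoxia replicates 2 or 3, normoxia replicates 1, 2 or 3 or FG hypoxia replicate 1 (adjusted p 0.0568 to 0.145). FGF2 lost its call in 8 of the 12 cases (adjusted p 0.05 to 0.164).

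Of 9 hyaluronan genes 2 rose. HAS3, which makes hyaluronan at the plasma membrane, read 10.18, 11.01 and 9.70 against 5.88, 6.23 and 6.40. The gap between the groups exceeded the spread within either, and HAS3 rose by 4.13 ± 0.30 (adjusted p = 9.2e-05). CD44, the main hyaluronan receptor, rose by 0.58 ± 0.12 (adjusted p = 0.0174), on 10 of its 13 probe sets. CEMIP, which degrades hyaluronan, changed by 1.07 ± 0.40 and did not pass (adjusted p = 0.143). CD44 lost its call without normoxia replicates 1, 2 or 3 (adjusted p 0.0519 to 0.0659).

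Of 13 genes for the hydroxylation, folding and crosslinking of collagen 7 rose and 1 fell, with a median of 0.96. P4HA2, a catalytic subunit of collagen prolyl hydroxylase, read 11.64, 11.74 and 11.40 against 8.91, 8.85 and 8.94. Both groups were tight and it rose by 2.70 ± 0.19 (adjusted p = 8.56e-05). P4HA1 rose by 1.76 ± 0.22 (adjusted p = 0.00151), PLOD1, a lysyl hydroxylase, by 1.40 ± 0.17 (adjusted p = 0.00132) and LOXL2, a lysyl oxidase with 3 of 4 probe sets higher, by 2.84 ± 0.33 (adjusted p = 0.00107). PLOD2, another lysyl hydroxylase, rose by 1.63 ± 0.24 (adjusted p = 0.00302). The gene that fell was SERPINH1, the collagen chaperone HSP47 (-0.44 ± 0.10, adjusted p = 0.0218). The shared beta subunit P4HB (0.13 ± 0.17) and PLOD3 (0.09 ± 0.11) did not pass. SERPINH1 lost its call without hypoxia replicates 1 or 2 or normoxia replicates 1, 2 or 3 (adjusted p 0.0503 to 0.0877).

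Of 17 matrix proteins, many of them substrates of these enzymes, 1 rose, where 3.89% of all genes rose. It was COL4A1, a basement membrane collagen (0.96 ± 0.24, adjusted p = 0.0399). COL1A1 read 9.99, 9.77 and 8.71 against 9.11, 8.75 and 8.40, so the groups overlapped, and passed only without hypoxia replicate 3 (0.74, adjusted p = 0.274; 1.13, adjusted p = 0.0439). LAMA5 and LAMB3, laminin chains, did not pass (0.53 and 0.86). COL4A1 lost its call in 7 of the 12 cases (adjusted p 0.0566 to 0.154).

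Of 8 genes of the plasminogen system 3 rose. PLAU, urokinase, read 10.00, 10.73 and 9.76 against 8.21, 7.64 and 7.99 and rose by 2.22 ± 0.28 (adjusted p = 0.00149). PLAUR, the urokinase receptor, read 9.53, 10.04 and 8.55 against 6.63, 6.76 and 7.16 and rose by 2.53 ± 0.31 (adjusted p = 0.00127). Neither overlapped between groups and both kept their calls. S100A10, a plasminogen receptor, rose by 0.93 ± 0.20 (adjusted p = 0.0207), and PLAT, the tissue activator, did not pass (1.06 ± 0.52). S100A10 lost its call without hypoxia replicates 1 or 2 or normoxia replicates 1 or 3 (adjusted p 0.0516 to 0.0695).

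Of 16 metalloproteinases and their inhibitors 5 rose and none fell, among them ADAM17, which sheds growth factor precursors (0.69 ± 0.16, adjusted p = 0.0286), and TIMP3, which inhibits it (0.94 ± 0.16, adjusted p = 0.007). TIMP1 rose by 0.76 ± 0.15 (adjusted p = 0.015). The count was 1 without hypoxia replicate 2, 2 without normoxia replicate 2 or 3 and 3 without normoxia replicate 1. Of 11 integrins 3 rose: ITGA5, the fibronectin receptor chain, read 8.62, 8.92 and 8.27 against 6.85, 6.76 and 6.77 and rose by 1.81 ± 0.16 (adjusted p = 0.000255), ITGA2 by 1.34 ± 0.23 (adjusted p = 0.00727) and ITGB1 by 0.52 ± 0.10 (adjusted p = 0.0111). ADAM17 lost its call without hypoxia replicates 1 or 2 or normoxia replicates 2 or 3 (adjusted p 0.0654 to 0.119). TIMP1 lost its call without hypoxia replicate 2 or normoxia replicate 1 (adjusted p 0.0539 to 0.0705). ITGB1 lost its call without hypoxia replicate 2 or normoxia replicate 2 (adjusted p 0.0535 to 0.0585).

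**Figure D4:**
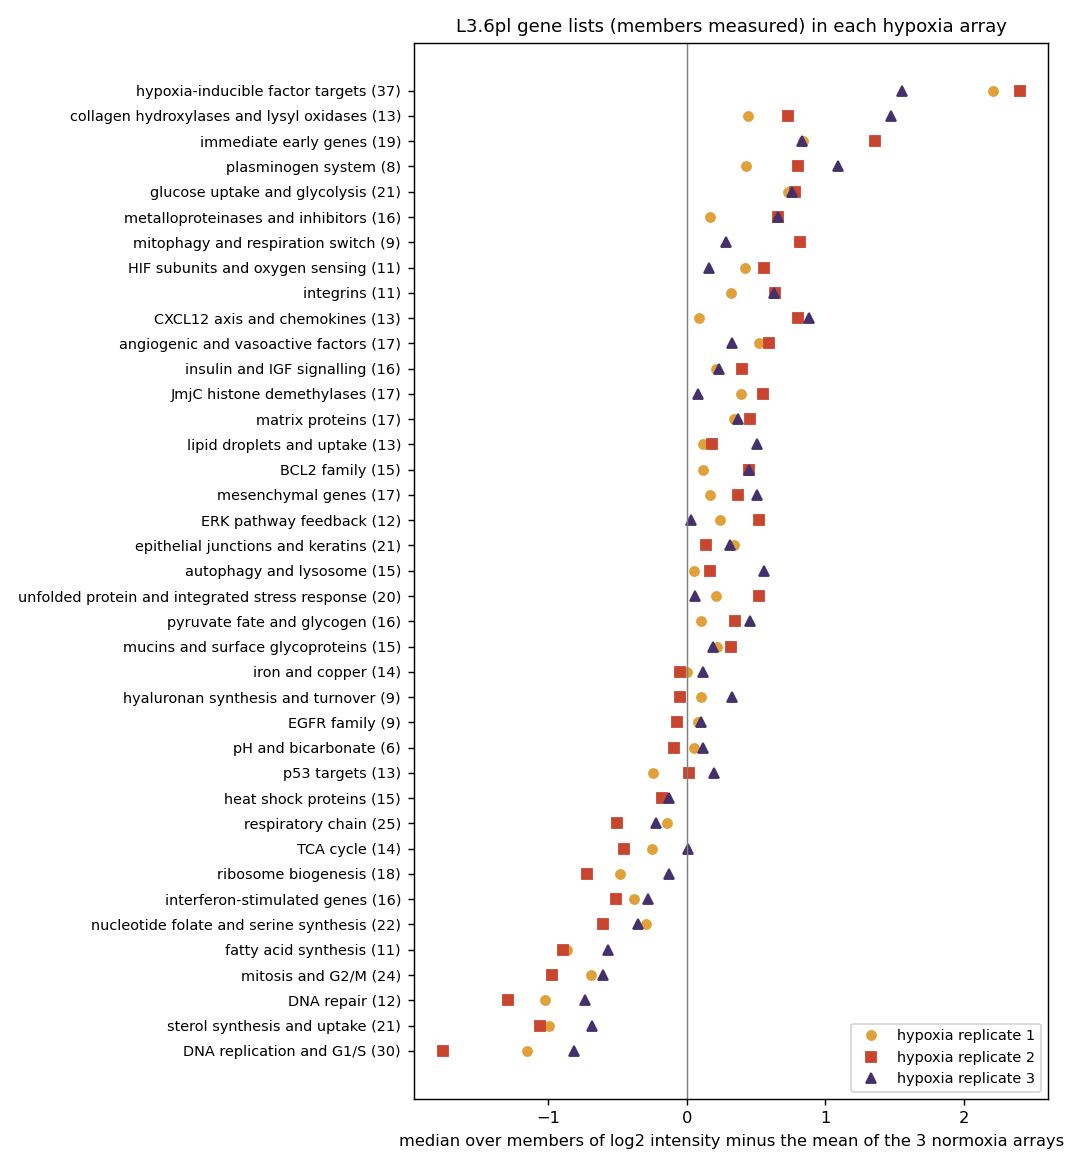
Median over the measured members of each of 39 gene lists of log2 intensity minus the normoxia mean, drawn for hypoxia replicates 1, 2 and 3 of L3.6pl. The HIF targets lie at 2.21, 2.40 and 1.55.

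Of 21 epithelial genes 5 rose and none fell, with a median of 0.30. CDH1, E-cadherin, read 10.75, 11.05 and 10.24 against 9.98, 9.18 and 9.09 and rose by 1.26 ± 0.31 (adjusted p = 0.0375). PKP2, a desmosomal plakophilin, rose by 1.30 ± 0.16 (adjusted p = 0.00147) and PKP3 by 0.53 ± 0.09 (adjusted p = 0.00823), and both kept their calls. DSG2 and DSC2, desmosomal cadherins, rose by 0.83 ± 0.16 (adjusted p = 0.0135) and 0.83 ± 0.18 (adjusted p = 0.0211). The count fell to 2 without hypoxia replicate 2, normoxia replicate 2 or normoxia replicate 3 and to 3 without hypoxia replicate 1. CDH1 lost its call without hypoxia replicates 1 or 2, normoxia replicates 2 or 3 or FG hypoxia replicate 1 (adjusted p 0.0529 to 0.149). DSG2 lost its call without hypoxia replicates 1 or 2 or normoxia replicates 2 or 3 (adjusted p 0.0515 to 0.0575). DSC2 lost its call without hypoxia replicate 2 or normoxia replicates 1, 2 or 3 (adjusted p 0.0525 to 0.0923).

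Of 17 mesenchymal genes 1 rose and none fell, where 3.89% of all genes rose and 2.97% fell, and the median was 0.31. This was AXL, a receptor tyrosine kinase, with 9.44, 9.83 and 9.45 against 6.82, 7.27 and 7.32 and a rise of 2.43 ± 0.31 (adjusted p = 0.00156). VIM, vimentin, read 12.71, 12.89 and 12.60 against 12.72, 12.37 and 12.13, overlapped between groups and did not pass (0.33 ± 0.25, adjusted p = 0.518). SNAI2, a repressor of E-cadherin, did not pass either (0.60 ± 0.32, adjusted p = 0.324).

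Of 19 immediate early genes, which growth factor and stress signals induce within minutes, 10 rose and none fell, with a median of 0.87, and 6 rose without hypoxia replicate 2 or without normoxia replicate 2. JUN, part of the AP-1 transcription factor, read 9.52, 10.72 and 9.43 against 7.44, 7.26 and 7.46 and rose by 2.51 ± 0.28 (adjusted p = 0.000855). KLF4, a zinc finger transcription factor, read 8.81, 9.76 and 9.09 against 6.94, 6.84 and 7.15 and rose by 2.24 ± 0.29 (adjusted p = 0.00175). In both genes replicate 2 was the highest hypoxia array. FOS, the partner of JUN in AP-1, read 10.08, 9.83 and 8.60 against 7.10, 7.31 and 7.56 and rose by 2.18 ± 0.45 (adjusted p = 0.0161). JUNB rose by 1.30 ± 0.18 (adjusted p = 0.00197) and ZFP36, which degrades AU-rich mRNAs, by 0.87 ± 0.12 (adjusted p = 0.00269). MYC (0.08 ± 0.26) and EGR1 (0.62 ± 0.74) did not pass, and EGR1 was high in hypoxia replicate 2 alone (11.69, against 9.95 to 10.30 in the other 5 arrays). FOS lost its call without hypoxia replicates 1 or 2 or normoxia replicates 1 or 2 (adjusted p 0.0539 to 0.0753).

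Of 12 feedback phosphatases and regulators of ERK signalling 2 rose, DUSP1 by 1.81 ± 0.28 (adjusted p = 0.00415) and DUSP5 by 1.88 ± 0.37 (adjusted p = 0.0135), while DUSP6 did not pass (0.70 ± 0.41). Without hypoxia replicate 3 the count was 4, with PHLDA1 among them (1.30, adjusted p = 0.0317), and without hypoxia replicate 1 or 2 or normoxia replicate 2 it was 1. Among receptors and ligands of the EGF family 2 of 9 rose and 1 fell. The ligands EREG, epiregulin, and TGFA rose by 2.05 ± 0.28 (adjusted p = 0.00203) and 1.71 ± 0.20 (adjusted p = 0.00108). EREG read 10.33, 10.84 and 10.06 against 8.30, 8.30 and 8.46, and TGFA 10.54, 10.94 and 11.01 against 8.99, 8.98 and 9.39, so neither overlapped. BTC, betacellulin, fell by 1.38 ± 0.36 (adjusted p = 0.0433), and the receptor EGFR did not pass (0.89 ± 0.40, adjusted p = 0.232). DUSP5 lost its call without hypoxia replicates 1 or 2 or normoxia replicate 2 (adjusted p 0.0502 to 0.0647). BTC lost its call in 9 of the 12 cases (adjusted p 0.0585 to 0.167).

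Counts for heat shock and endoplasmic reticulum stress genes stand beside 3.89% of all genes that rose and 2.97% that fell. Of 15 heat shock genes 1 rose, HSPA6, an inducible HSP70 whose probes can also bind its relatives. It read 9.91, 10.56 and 5.26 against 4.68, 4.43 and 4.89, so hypoxia replicate 3 sat near normoxia. Its change from the dim range was 3.91 ± 1.05 (adjusted p = 0.0499). Leaving out hypoxia replicates 1, 2 and 3 in turn gave 3.24, 2.92 and 5.57, and the call was lost with 10 of the 12 arrays left out singly (adjusted p from 0.0658 to 0.183). HSP90AA1 and HSPD1 did not pass (-0.14 and -0.23). Of 20 genes of the unfolded protein and integrated stress responses 2 rose: PPP1R15A, which reverses eIF2α phosphorylation (1.72 ± 0.44, adjusted p = 0.0408), and VLDLR, a lipoprotein receptor that the lists of HIF targets and lipid uptake also hold (2.06 ± 0.33, adjusted p = 0.00457). The factor ATF4 (0.54 ± 0.31) and the chaperone HSPA5 (0.18 ± 0.14) did not pass. PPP1R15A lost its call in 9 of the 12 cases (adjusted p 0.0511 to 0.146).

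Of 21 measured genes of sterol synthesis and uptake 6 fell and 1 rose, with a median of -1.02. ACAT2, which starts the pathway from acetyl-CoA, read 8.29, 7.63 and 8.52 against 10.48, 10.01 and 10.01 and fell by 2.02 ± 0.29 (adjusted p = 0.00269). SQLE, squalene epoxidase, an enzyme that uses molecular oxygen, read 7.01, 6.91 and 8.04 against 10.44, 8.96 and 8.95 and fell by 2.13 ± 0.45 (adjusted p = 0.0181). IDI1, isopentenyl diphosphate isomerase, fell by 1.87 ± 0.35 (adjusted p = 0.0107) but with 2 of its 4 probe sets higher in hypoxia, and FDPS, farnesyl diphosphate synthase, fell by 1.42 ± 0.26 (adjusted p = 0.00926). The riser was INSIG2, which holds the sterol regulator SREBP in the endoplasmic reticulum (1.22 ± 0.21, adjusted p = 0.00645). SQLE lost its call without hypoxia replicates 1 or 2 (adjusted p 0.0676 to 0.0843). IDI1 lost its call without hypoxia replicate 2 (adjusted p 0.0536).

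Normoxia replicate 1 was high for this pathway: the mean level over the list was 9.52 in it and 8.69 and 8.72 in the other normoxia arrays, and without it the list's median was -0.74. The count of falls was 3 without hypoxia replicate 1, 2 without hypoxia replicate 2, 9 without hypoxia replicate 3, 4 without normoxia replicate 2 or 3 and 10 without FG normoxia replicate 1. ACAT2 and FDPS kept their calls.

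Of 11 genes of fatty acid synthesis 4 fell and none rose, with a median of -0.77. ACACA, acetyl-CoA carboxylase, read 8.21, 7.91 and 8.08 against 10.39, 9.33 and 9.11 and fell by 1.54 ± 0.37 (adjusted p = 0.0308). ACLY, ATP citrate lyase, fell by 1.35 ± 0.30 (adjusted p = 0.0235), and the elongases ELOVL6 and ELOVL5 by 1.39 ± 0.30 (adjusted p = 0.0182) and 0.77 ± 0.15 (adjusted p = 0.013), the latter with 1 of 4 probe sets higher. None of the 4 was called without hypoxia replicate 2 or normoxia replicate 2, and 1 was called without hypoxia replicate 1 or normoxia replicate 1. SCD, the stearoyl-CoA desaturase, read 13.02 in normoxia replicate 1 and 11.33 and 11.07 in the others, and did not pass (-0.99 ± 0.48). ACACA lost its call without hypoxia replicates 1 or 2, normoxia replicates 1 or 2 or FG hypoxia replicate 2 (adjusted p 0.0515 to 0.115). ACLY and ELOVL6 lost their calls without hypoxia replicates 1 or 2 or normoxia replicates 1 or 2 (adjusted p 0.0594 to 0.0976). ELOVL5 lost its call without hypoxia replicate 2 or normoxia replicate 2 (adjusted p 0.0541 to 0.0624).

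Lipid droplet genes rose in 3 of 13 cases. PLIN2, the coat protein of lipid droplets, read 11.33, 11.82 and 11.45 against 8.71, 8.43 and 8.63 and rose by 2.94 ± 0.19 (adjusted p = 6.99e-05), on the brighter of 2 probe sets that differ in direction. HILPDA, an inhibitor of triglyceride lipase, read 9.20, 9.71 and 8.77 against 6.64, 6.66 and 6.88 and rose by 2.50 ± 0.25 (adjusted p = 0.000507). The third riser was VLDLR. PNPLA2, the triglyceride lipase that HILPDA inhibits, did not pass (-0.12 ± 0.11).

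Of 30 measured genes of DNA replication 5 fell and none rose, and the median change was -1.34, against -0.02 for all genes. POLA1, the catalytic subunit of DNA polymerase alpha, read 6.94, 6.63 and 7.24 against 8.05, 8.56 and 8.49. The groups did not overlap and POLA1 fell by 1.43 ± 0.26 (adjusted p = 0.00807), keeping its call. MCM2 and MCM3, subunits of the replicative helicase, fell by 1.55 ± 0.41 (adjusted p = 0.048) and 1.65 ± 0.40 (adjusted p = 0.0343). PCNA, the sliding clamp, read 9.39, 8.79 and 10.63 against 10.88, 11.44 and 11.72, with replicate 3 nearest to normoxia, and passed without that array (-1.74, adjusted p = 0.0664; -2.26, adjusted p = 0.0116). MCM2 lost its call in 8 of the 12 cases (adjusted p 0.0565 to 0.185). MCM3 lost its call without hypoxia replicates 1 or 2, normoxia replicates 1, 2 or 3 or FG hypoxia replicate 2 (adjusted p 0.0555 to 0.133).

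The count of replication genes depended on single arrays: it was 10 without hypoxia replicate 3, 17 without FG normoxia replicate 1 and 1 without hypoxia replicate 1 or 2, normoxia replicate 2 or 3 or FG hypoxia replicate 2. Of 24 mitotic genes none was called by limma, 4 were lower at an unadjusted p below 0.05 (16.7%, against 11.6% of all genes), and the median was -0.78; 1 fell without hypoxia replicate 3 and 5 without FG normoxia replicate 1. The mean level over the mitotic list was 9.06, 10.14 and 9.92 in normoxia and 8.93, 8.70 and 9.06 in hypoxia, so normoxia replicate 1 lay with the hypoxia arrays. TOP2A and MKI67, markers of cycling cells, did not pass (-0.40 and -0.56). In bulk RNA, fewer cells of a kind and less transcript per cell cannot be told apart.

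Of 12 DNA repair genes 3 fell, BRIP1 by 1.81 ± 0.41 (adjusted p = 0.0239), BARD1 by 1.19 ± 0.27 (adjusted p = 0.024) and the mismatch repair gene MSH6 by 0.81 ± 0.18 (adjusted p = 0.0241). None was called without hypoxia replicate 2, normoxia replicate 2 or normoxia replicate 3, and 8 members were called without FG normoxia replicate 1. In ribosome biogenesis 3 of 18 fell, with 7 without hypoxia replicate 3 and 1 without hypoxia replicate 2 or normoxia replicate 2 or 3. POLR1A, the largest subunit of RNA polymerase I, fell by 1.00 ± 0.15 (adjusted p = 0.00335). POLR1B and RRS1 fell by 0.98 ± 0.21 (adjusted p = 0.019) and 1.11 ± 0.23 (adjusted p = 0.0159), and the nucleolar genes NPM1 and NCL did not pass (0.04 and -0.32). Of 22 genes of nucleotide, serine and folate metabolism 5 fell and 1 rose: PSPH, which makes serine, rose by 1.70 ± 0.22 (adjusted p = 0.00156) with 1 of 3 probe sets higher, and CTPS1 and CAD, enzymes of pyrimidine synthesis, fell by 1.63 ± 0.39 (adjusted p = 0.0323) and 1.30 ± 0.32 (adjusted p = 0.0386). No member of that list fell without hypoxia replicate 1 or 2, normoxia replicate 2 or 3 or FG hypoxia replicate 2, and 1 to 3 fell without normoxia replicate 1, FG hypoxia replicate 1 or 3 or FG normoxia replicate 2 or 3. BRIP1, BARD1, MSH6 and POLR1B lost their calls without hypoxia replicates 1 or 2 or normoxia replicates 2 or 3 (adjusted p 0.0595 to 0.107). RRS1 lost its call without hypoxia replicate 2 or normoxia replicates 1, 2 or 3 (adjusted p 0.0513 to 0.0685). CTPS1 lost its call in 7 of the 12 cases (adjusted p 0.0501 to 0.122). CAD lost its call in 8 of the 12 cases (adjusted p 0.0519 to 0.152).

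Of 17 JmjC-domain oxygenases, most of them histone demethylases that need oxygen, 5 rose and none fell. KDM3A read 11.53, 11.99 and 10.90 against 10.05, 9.48 and 9.24 and rose by 1.89 ± 0.29 (adjusted p = 0.0041). KDM4B read 9.83, 10.05 and 8.98 against 8.10, 8.07 and 7.88 and rose by 1.60 ± 0.24 (adjusted p = 0.00323). Both kept their calls, with replicate 3 the lowest hypoxia array in each. KDM7A rose by 1.40 ± 0.27 (adjusted p = 0.0112) and JMJD6 by 1.12 ± 0.23 (adjusted p = 0.0165). KDM5A rose by 0.55 ± 0.13 (adjusted p = 0.0283). The count was 2 without normoxia replicate 2 and 3 without hypoxia replicate 2 or normoxia replicate 1. KDM7A lost its call without normoxia replicate 2 (adjusted p 0.0594). JMJD6 lost its call without hypoxia replicates 1 or 2 or normoxia replicates 1 or 2 (adjusted p 0.0507 to 0.0746). KDM5A lost its call without hypoxia replicates 2 or 3 or normoxia replicates 1, 2 or 3 (adjusted p 0.0516 to 0.098).

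In insulin-like growth factor and PI3K signalling 2 of 16 rose and 2 fell. PIK3R3, a regulatory subunit of PI3K, read 5.37, 5.36 and 6.89 in hypoxia and 8.76, 7.91 and 7.87 in normoxia. Replicate 3 lay between the other hypoxia arrays and normoxia, and the fall was 2.31 ± 0.37 (adjusted p = 0.00485) with it and 2.82 without it (adjusted p = 0.0002). AKT1 fell by 0.47 ± 0.10 (adjusted p = 0.0155), and PIK3CD and IGFBP6 rose by 0.60 ± 0.12 (adjusted p = 0.0159) and 1.17 ± 0.27 (adjusted p = 0.025). IGFBP3 did not pass (0.78 ± 0.33, adjusted p = 0.196). AKT1 lost its call without hypoxia replicate 2 or normoxia replicates 2 or 3 (adjusted p 0.0594 to 0.0695). PIK3CD lost its call without hypoxia replicates 1 or 2 or normoxia replicates 2 or 3 (adjusted p 0.0563 to 0.0615). IGFBP6 lost its call without hypoxia replicate 2 or normoxia replicates 1 or 2 (adjusted p 0.0617 to 0.104).

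Of 15 genes of the BCL2 family 5 rose and none fell. The largest rise among them was that of BNIP3 (2.63), which the lists of HIF targets and mitophagy also hold. BCL2L1 rose by 0.53 (adjusted p = 0.0451) and lost its call in 9 of the 12 cases (adjusted p 0.0564 to 0.151). BIK, a proapoptotic BH3-only protein, read 11.08, 11.20 and 10.83 against 9.15, 9.29 and 9.86 and rose by 1.60 ± 0.25 (adjusted p = 0.00393). MCL1, which opposes cell death, rose by 1.00 ± 0.19 (adjusted p = 0.00981). BCL2L11, which encodes BIM, missed the threshold with all arrays (1.07, adjusted p = 0.051) and passed without hypoxia replicate 3 (1.48, adjusted p = 0.000859). None of 13 p53 targets was called by limma, 3 were higher and 2 lower at an unadjusted p below 0.05, where 9.64% of all genes were higher and 11.6% lower, and the median was 0.00; without hypoxia replicate 3 there were 2 rises and 1 fall, and the rises included GDF15, a secreted stress protein that read 12.21, 11.93 and 9.30 against 9.24, 7.72 and 8.30 (2.72, adjusted p = 0.0859; 3.65, adjusted p = 0.0112).

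Of 15 mucins and surface glycoproteins 3 rose. CEACAM6, a cell-surface adhesion protein with close relatives, read 8.10, 8.45 and 9.53 against 5.94, 6.25 and 7.39, with the third array highest in both groups, and rose by 2.17 ± 0.40 (adjusted p = 0.0102). MUC1 rose by 1.81 ± 0.48 (adjusted p = 0.0467). L1CAM, a neural adhesion protein, rose by 1.29 ± 0.28 (adjusted p = 0.0196). No member was called without normoxia replicate 2 and 1 without hypoxia replicate 2. Of 14 genes of iron and copper handling the 3 risers were metallothioneins, near-identical genes whose probes can be shared: MT1X by 1.53 ± 0.31 (adjusted p = 0.0147), MT1F by 1.30 ± 0.24 (adjusted p = 0.00987) and MT2A by 1.12 ± 0.27 (adjusted p = 0.0344; 0.0522 without hypoxia replicate 3). The iron importer TFRC and ferritin FTL did not pass (-0.20 and 0.19). CEACAM6 lost its call without normoxia replicate 2 (adjusted p 0.0552). MUC1 lost its call in 9 of the 12 cases (adjusted p 0.0538 to 0.172). L1CAM lost its call without hypoxia replicate 2 or normoxia replicates 1 or 2 (adjusted p 0.0665 to 0.0837). MT1X lost its call without hypoxia replicate 2 or normoxia replicates 2 or 3 (adjusted p 0.0549 to 0.0703). MT2A lost its call without hypoxia replicates 1, 2 or 3 or normoxia replicates 1, 2 or 3 (adjusted p 0.0522 to 0.121).

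Of 16 interferon-stimulated genes 3 fell and none rose, with a median of -0.45. IFIT3 read 6.57, 6.24 and 6.65 against 8.32, 7.82 and 7.73 and fell by 1.47 ± 0.18 (adjusted p = 0.0014), keeping its call. OAS3 and OAS2, which sense double-stranded RNA, fell by 0.77 ± 0.16 (adjusted p = 0.0145) and 0.39 ± 0.10 (adjusted p = 0.0341); the count of the list was 5 without hypoxia replicate 3 and 1 without hypoxia replicate 2. Of 15 autophagy and lysosome genes 2 rose, MAP1LC3B and GABARAPL1, which coat autophagosomes (0.59 ± 0.14, adjusted p = 0.0299, and 0.64 ± 0.15, adjusted p = 0.0261). OAS3 lost its call without hypoxia replicate 2 (adjusted p 0.0579). OAS2 lost its call in 8 of the 12 cases (adjusted p 0.0503 to 0.149). MAP1LC3B lost its call without hypoxia replicates 1 or 2 or normoxia replicates 1, 2 or 3 (adjusted p 0.0603 to 0.111). GABARAPL1 lost its call without hypoxia replicates 1 or 2 or normoxia replicates 2 or 3 (adjusted p 0.0561 to 0.12).

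Mean levels of markers are given as the higher of each gene's hypoxia and normoxia means in L3.6pl. Of 9 ductal markers, those of the line's own cell type, 1 was below 6, at a mean of 4.15. The brightest were KRT19, at 13.39, and KRT18, at 12.88. The summed linear intensity of the 9 ran from 28930 to 32240 in hypoxia and from 27630 to 28260 in normoxia. Other cell types were checked by the same sum, and in the array as a whole 8776 of 19775 genes had this higher mean below 6. Of 11 fibroblast markers 9 were below 6, and their sum was 971.1 to 1442 in hypoxia against 713 to 948.1 in normoxia, with COL1A1, at a mean of 9.49, and ACTA2, at 7.35, the exceptions. Of 7 blood markers 6 were below 6 (250.6 to 290.1 against 263.2 to 267.8). Of 6 endothelial markers 4 were below 6 (354 to 496 against 286.1 to 346.1), and PECAM1, with 1 of 5 probe sets higher, changed by 0.78 ± 0.21 (adjusted p = 0.0505; 0.00272 without hypoxia replicate 3). Of 9 acinar and endocrine markers 8 were below 6, while CEL, a bile salt-dependent lipase, read 9.46, 9.89 and 9.36 against 6.87, 6.41 and 6.03 and rose by 3.13 ± 0.27 (adjusted p = 0.000223). The sum of that list, 792.8 to 1080 against 197.4 to 250.6, did not overlap between groups and rests on CEL. The ductal, fibroblast and endothelial sums did not overlap between groups either, while the blood sums did. The part of other cells in the results was not tested.

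Several of the largest rises were of genes with other roles, though TMEM45A and RORA also stand in the list of HIF targets. GPRC5A, an orphan G protein-coupled receptor, read 12.13, 12.04 and 11.01 against 7.89, 8.39 and 8.84 and rose by 3.36 ± 0.36 (adjusted p = 0.000816). TMEM45A, a transmembrane protein, rose by 3.38 ± 0.39 (adjusted p = 0.00102), HCAR3, a hydroxycarboxylic acid receptor nearly identical to HCAR2, by 3.20 ± 0.32 (adjusted p = 0.000532) and SLC22A4, a carnitine and ergothioneine transporter, by 3.02 ± 0.39 (adjusted p = 0.00158). C11orf96 read 7.50, 9.29 and 7.19 against 4.30, 4.06 and 4.41, with replicate 2 the highest, and its rise of 3.73 ± 0.42 (adjusted p = 0.000893) from the dim range was 3.09 without that array. RORA, a nuclear receptor, read 9.33, 10.25 and 9.03 against 7.56, 6.13 and 6.18 and rose by 2.91 ± 0.46 (adjusted p = 0.00471), on all 8 of its probe sets. NT5E, the enzyme CD73 that makes adenosine, read 6.76, 7.07 and 8.41 against 4.11, 4.38 and 5.11 and rose by 2.88 ± 0.50 (adjusted p = 0.00734), here with replicate 3 the highest.

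Among the largest falls, ZNF367, a zinc finger protein, read 5.47, 5.22 and 7.01 against 7.96, 8.58 and 8.70 and fell by 2.51 ± 0.60 (adjusted p = 0.0303). BRI3BP read 6.99, 6.90 and 6.60 against 8.80, 9.15 and 8.95, with no overlap, and fell by 2.14 ± 0.27 (adjusted p = 0.00158). SLC16A14, of the monocarboxylate transporter family, fell by 2.08 ± 0.45 (adjusted p = 0.0189), and GINS1, a replication factor, by 2.04 ± 0.55 (adjusted p = 0.0497). ACSL1, a long-chain acyl-CoA synthetase, read 5.08, 5.12 and 5.77 against 8.50, 6.71 and 6.74, and its change of -1.99 ± 0.47 (adjusted p = 0.0295), into the dim range, was -1.40 without normoxia replicate 1. B3GALNT1, a glycosyltransferase, read 4.91, 4.43 and 6.50 against 7.03, 6.97 and 7.26, and its change of -1.81 ± 0.41 (adjusted p = 0.025) was -2.42 without hypoxia replicate 3. LYRM7, an assembly factor of complex III, fell by 1.93 ± 0.25 (adjusted p = 0.0018) and EMP2, a tetraspan membrane protein, fell by 1.90 ± 0.33 (adjusted p = 0.00742). HEATR5A fell by 1.95 ± 0.23 (adjusted p = 0.00118), and these 3 kept their calls. ZNF367 and B3GALNT1 lost their calls without hypoxia replicates 1 or 2 or normoxia replicates 1, 2 or 3 (adjusted p 0.0517 to 0.128). SLC16A14 lost its call without hypoxia replicates 1 or 2 or normoxia replicates 2 or 3 (adjusted p 0.0659 to 0.0902). GINS1 lost its call in 10 of the 12 cases (adjusted p 0.0501 to 0.184). ACSL1 lost its call without hypoxia replicates 1 or 2 or normoxia replicate 1 (adjusted p 0.0539 to 0.112).

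Whether the response differs between the lines was tested as an interaction, the change in L3.6pl minus the change in FG. FG itself gave 838 rises (4.24%) and 1279 falls (6.47%), or 10.7% of genes. By limma with all 12 arrays 5 genes differed (0.0253%), 3 with the higher change in L3.6pl (0.0152%) and 2 with the lower (0.0101%), while 1427 had an unadjusted p below 0.05. Arrays with the same replicate number varied together across the lines within each condition, with correlations of their deviations from the group means of 0.358 to 0.735. With that number as a block in each condition, 703 genes differed (3.55%), 503 with the higher change in L3.6pl (2.54%) and 200 with the lower (1.01%), the same 5 among them. As a random block, which uses the number less strictly, it gave 366 genes (1.85%), 244 (1.23%) and 122 (0.617%). Neither block was among the planned settings, and the fit without a block is the main one. Without a block the count was 23 without FG normoxia replicate 3, 13 without FG hypoxia replicate 3 and 2 or 3 without FG hypoxia replicate 1 or 2, FG normoxia replicate 2 or L3.6pl normoxia replicate 2 or 3.

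MAOA, monoamine oxidase A, read 8.77, 9.35 and 9.61 in hypoxic L3.6pl and 7.12, 7.35 and 7.47 in normoxia, and 5.71, 5.72 and 5.98 against 6.05, 5.95 and 6.27 in FG. It rose by 1.93 ± 0.20 in L3.6pl and its change was -0.29 ± 0.20 in FG (interaction adjusted p = 0.0289; 0.0045 with the block). RAB31, a GTPase of vesicle transport, read 9.14, 9.27 and 9.14 against 7.76, 7.96 and 8.02 in L3.6pl and moved little in FG, with changes of 1.27 ± 0.10 and 0.17 ± 0.10 (0.0289; 0.00757). ATF3, a stress-induced transcription factor, went the other way: 6.05, 6.18 and 5.74 against 5.77, 5.71 and 5.96 in L3.6pl, and 8.62, 8.47 and 8.47 against 6.31, 5.89 and 5.95 in FG. Its changes were 0.18 ± 0.14 and 2.47 ± 0.14 (0.00259; 0.00403).

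CREB5, a relative of the AP-1 factors, changed by 0.25 ± 0.13 in L3.6pl and by 2.51 ± 0.13 in FG (0.00259; 0.00579). SERTAD4 changed by -0.07 ± 0.16 and -2.08 ± 0.16 (0.0193; 0.00362), from FG normoxia values of 7.55, 7.07 and 7.36 and hypoxia values near those of both L3.6pl groups. CREB5 read 6.80, 6.65 and 6.52 in hypoxic FG and 4.17, 4.16 and 4.12 in normoxic FG, and 4.15 to 4.65 in L3.6pl. MAOA in FG, ATF3 and CREB5 in L3.6pl and SERTAD4 in L3.6pl and hypoxic FG lay in or near the dim range. The sizes of these changes are therefore uncertain. ATF3 and CREB5 differed with any of the 12 arrays left out. SERTAD4, RAB31 and MAOA did so in 7, 5 and 4 of the 12 cases, and their adjusted p otherwise reached 0.0886, 0.122 and 0.114.

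ACKR3 rose by 6.29 in L3.6pl and by 2.12 ± 0.41 in FG, where it read 9.36, 9.51 and 10.24 in hypoxia and 7.66, 7.35 and 7.76 in normoxia. Its hypoxia levels were thus alike in the lines and its normoxia levels were not, and the interaction had an adjusted p of 0.0508, or 0.00964 with the block. CEL (3.13 and 0.40), HAS3 (4.13 and 1.45), ITGA5 (1.81 and 0.35) and PKP2 (1.30 and 0.18) missed the threshold with all arrays (adjusted p 0.0532, 0.0633, 0.0633 and 0.133). With the block, which was not planned, they passed (0.00403, 0.0134, 0.0229 and 0.0241). In FG, CEL read 5.37, 6.01 and 6.07 in hypoxia and 5.83, 5.34 and 5.07 in normoxia. HAS3 in FG read 6.40, 5.89 and 5.96 against 4.61, 4.33 and 4.96. These values, and those of ACKR3 in normoxic L3.6pl, lay in or near the dim range, so the sizes of the differences are uncertain. CXCR4 (3.51 and 4.14) and ADM (3.72 and 4.59) passed in neither fit (adjusted p 0.903 and 0.809; 0.466 and 0.341 with the block). Of the 37 HIF targets and the 21 glycolysis genes none differed between the lines by limma with the block, where 9 of the targets, 2 of the glycolysis genes and 18.0% of all genes had an unadjusted p below 0.05. With the random block 1 glycolysis gene and no target differed. The median difference over the targets was -0.1.

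**Figure D5:**
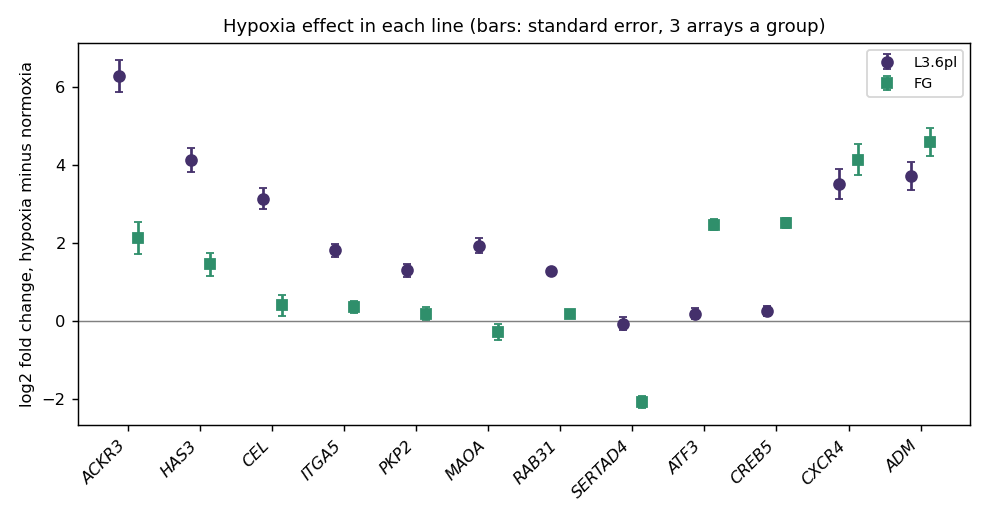
log2 change in hypoxia with its standard error for 12 named genes in L3.6pl and in FG. ACKR3, HAS3, CEL, ITGA5, PKP2, MAOA and RAB31 have the higher change in L3.6pl, and ATF3 and CREB5 rose in FG, by 2.47 and 2.51.

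Some genes stood apart in hypoxia replicate 3, and their values are given as a description, chosen after they were seen. TAF15, an RNA-binding protein, read 10.29, 10.50 and 6.45 in hypoxia and 9.10, 9.84 and 8.24 in normoxia. ZNF652 read 8.43, 8.39 and 4.91 against 7.30, 8.53 and 7.77. LOC114224 read 9.52, 9.61 and 5.71 against 7.63, 7.76 and 7.14, and rose only without that array (2.05, adjusted p = 0.0342). In each of these the array lay below all other L3.6pl arrays.

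TXNIP, a thioredoxin-binding protein that responds to glucose, read 5.73, 6.16 and 9.51 in hypoxia against 6.16, 9.11 and 9.59 in normoxia, so hypoxia replicate 3 lay with normoxia replicates 2 and 3 and normoxia replicate 1 with the other hypoxia arrays. FABP4, a fatty acid carrier, read 5.64, 7.14 and 8.97 against 4.22, 4.62 and 6.09, with the third array highest in both groups. KRT14, a basal keratin, and MMP12, macrophage elastase, were high in hypoxia replicate 3 alone, at 7.68 and 6.47, while their other 5 arrays ran from 4.99 to 6.19 and from 3.87 to 4.51. LUM, a matrix proteoglycan of fibroblasts, read 2.90, 4.24 and 6.29 against 3.36, 3.17 and 4.23. None of TXNIP, FABP4, KRT14, MMP12 and LUM passed with all arrays or without replicate 3.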

How the data were processed

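RNA was measured on 12 arrays of 54675 probe sets. The deposited values are linear intensities. Per the submitters' processing notes the authors used RMA, and they do not give the step from its log2 scale to a linear scale. Their log2 was taken here with no further normalization. Leaving aside 62 control probe sets, 41091 had exactly 1 gene in the platform annotation, 1801 several and 11721 none. Of the 19775 genes, 10523 had several probe sets, and 19735 symbols were current in RefSeq's gene table of GRCh38.p14. All 12 arrays entered 1 limma 3.58.1 model (R 4.3.3) with a mean per group, moderated by eBayes (8 residual and 2.72 prior degrees of freedom) and adjusted by Benjamini-Hochberg, and the fit was tested on simulated data. The number of arrays limits precision, and with 3 arrays a group the smallest two-sided p of an exact permutation test is 0.1.

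The members and lists were chosen with earlier results of these data known. Named genes are the largest changes in each direction without overlap, up to 4 called and 2 bright uncalled members of each list, and the largest interactions; genes named beyond the rule were chosen after their values were seen. The labels do not say whether replicate numbers pair hypoxia with normoxia. In L3.6pl the deviations of same-numbered arrays correlated at -0.04, -0.037 and 0.413, and those of differently numbered arrays at -0.494 to 0.403. Alternatives covered single arrays left out, replicate blocks, normalization, filters, probe set rules, array weights and thresholds.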

Additional observations from a re-analysis of the deposited data

Results flagged for a closer look

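The hypoxia effect of 5 genes differed between L3.6pl and FG by the interaction test of limma with all arrays. The change in L3.6pl minus that in FG was 2.22 for MAOA and 1.1 for RAB31, which rose in L3.6pl. It was 2.01 for SERTAD4, which fell in FG, and -2.3 for ATF3 and -2.25 for CREB5, which rose in FG.

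Probe sets outside the gene comparison also carried calls. Of 1801 probe sets tied to several genes 99 were called (5.5%), 52 higher and 47 lower in hypoxia, and without hypoxia replicate 3 the numbers were 105 and 108 (11.8%). Of 11721 probe sets with no gene in the annotation 222 were called (1.89%), 100 higher and 122 lower, and without hypoxia replicate 3 the numbers were 417 and 237 (5.58%). Among the 41091 probe sets with exactly 1 gene 1260 were higher and 937 lower (5.35%), and without hypoxia replicate 3 the numbers were 2294 and 2731 (12.2%).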

How the results depend on the processing

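Beside 769 rises, 588 falls and 5 interaction genes, leaving out 1 array gave 343 to 962, 165 to 1482 and 2 to 23. Leaving out FG normoxia replicate 1, normoxia replicate 1 and hypoxia replicate 3 together gave 1560, 2619 and 19, and turned KRT14 (-0.71, adjusted p = 0.0338) and MMP12 (-0.48, adjusted p = 0.0365) below 0, from 0.42 and 0.41 uncalled. The 6 L3.6pl arrays alone gave 279 falls (518 rises), and 1737 falls without hypoxia replicate 3. Array quality weights gave 2080, 3112 and 421. An adjusted p below 0.01 gave 329, 146 and 2, and a least 2-fold change 341 and 196. Testing every single-gene probe set on its own gave 1370, 1084 and 26. With a replicate block shared by both lines there were 1047 falls and 13 interaction genes, with a replicate block in L3.6pl alone 330 rises and 175 falls, with a random replicate block 366 interaction genes, and with a replicate block shared by the lines in each condition 703. These blocks were not planned. A planned replicate block within each line left 650 rises, 462 falls and 4 interaction genes. What the replicate numbers mark is not given, and whether a call lost under such a block reflects a weaker effect was not tested. For the interaction, median centring gave 11, the mean of probe sets 13 and robust trend moderation 10. The cause of these shifts was not tested. Loess, median centring, the filter on dim genes, the mean of probe sets and robust trend moderation kept rises between 705 and 952 and falls between 539 and 635.

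Of the 19775 genes 8776 had both their L3.6pl hypoxia mean and their normoxia mean below 6, where signal over background is small. Of the 134 named genes called, 76 held with any array left out, and 127 without hypoxia replicate 3.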
